A study of Mus musculus with 12 samples.

Results

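The genes described here serve the clearance of dying cells and of modified lipoproteins by macrophages. They are the receptor tyrosine kinases Mertk, Axl and Tyro3, their ligands Gas6 and Pros1, the bridging protein Mfge8, and the scavenger receptors Stab1, Cd36, Msr1 and Lrp1. The members were found by gene symbol and make up 10 of the 53801 genes in the tables. Each symbol belonged to a single row, and all 10 passed the filter on low counts.

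RNA was measured by bulk sequencing in heart macrophages of mice after myocardial infarction, made by ligation of the left anterior descending coronary artery. The 4 groups of 3 libraries were WT CCR2low, WT CCR2hi, Bhlhe41dTomato-Cre+/- CCR2low and Bhlhe41dTomato-Cre+/- CCR2hi, and the 2 latter are called Bhlhe41Cre below. Every group is labelled as male C57BL/6N mice with the MI treatment, and no group without the ligation was analysed here. In the Bhlhe41Cre samples the label fields other than the title are displaced, so these labels are less certain there. The sources used here give no age, no time after infarction and no number of animals per library, so the p values measure only the spread between these libraries, which may be technical. Bhlhe41 encodes a transcriptional repressor of the basic helix-loop-helix class, and the genotype name places dTomato-Cre there on 1 of its alleles. CCR2 is the receptor for the chemokine CCL2 that marks macrophages recently derived from monocytes, and its level defines what is called the gate here.

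Efferocytosis is the uptake of apoptotic cells. A dying cell exposes phosphatidylserine, which Gas6 and protein S (Pros1) bind and present to the kinases Tyro3, Axl and Mertk, together called the TAM receptors, while Mfge8 links the same lipid to integrins. Stab1 binds phosphatidylserine directly, and Cd36 and Msr1 take up oxidised or acetylated lipoproteins as well as apoptotic cells. Lrp1 is an endocytic receptor with many ligands, among them calreticulin on the surface of dying cells. In the infarcted heart, macrophages clear dead cardiomyocytes and neutrophils, and Mertk is commonly used as a marker of tissue macrophages.

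Promoter sequence was taken from RefSeq on GRCm38.p6, whose table held an entry for 9 of the 10 members and none for Msr1. The first set of upstream sequences is shown because Gas6, Mfge8 and Lrp1 were called lower in Bhlhe41Cre than in WT in both gates, and the second because Mertk and Stab1 followed the gate and did not pass the test of genotype in either gate. Each is the 250 bases before the annotated RefSeq start, 5′ to 3′ on the gene's strand, and capitals mark GC boxes (GGGCGG) and PU.1 core motifs (GAGGAA, the core recognised by the macrophage factor PU.1) on either strand. The first 25 bases after the start lay in a GENCODE transcript of the gene for 5 of the 9 members, and not for Gas6 and Mertk. The windows of Tyro3 and Cd36, not printed, lay inside the GENCODE bounds of the gene, and an annotated exon reached into that of Tyro3. The Gas6 window was chr8:13494536-13494785, minus strand, that of Mfge8 was chr7:79149061-79149310, minus strand, and that of Lrp1 was chr10:127621149-127621398, minus strand. The Mertk window was chr2:128698665-128698914, plus strand, and that of Stab1 was chr14:31168642-31168891, minus strand.
Gas6: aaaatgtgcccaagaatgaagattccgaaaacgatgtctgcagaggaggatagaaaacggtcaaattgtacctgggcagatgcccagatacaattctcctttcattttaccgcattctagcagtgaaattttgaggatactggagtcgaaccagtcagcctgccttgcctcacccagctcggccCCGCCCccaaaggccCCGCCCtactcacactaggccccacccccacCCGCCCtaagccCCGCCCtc
Mfge8: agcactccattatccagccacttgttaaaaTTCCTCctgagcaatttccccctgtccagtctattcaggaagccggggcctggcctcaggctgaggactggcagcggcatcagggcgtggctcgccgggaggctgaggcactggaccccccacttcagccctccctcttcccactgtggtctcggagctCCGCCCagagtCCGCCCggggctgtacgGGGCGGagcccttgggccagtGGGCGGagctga
Lrp1: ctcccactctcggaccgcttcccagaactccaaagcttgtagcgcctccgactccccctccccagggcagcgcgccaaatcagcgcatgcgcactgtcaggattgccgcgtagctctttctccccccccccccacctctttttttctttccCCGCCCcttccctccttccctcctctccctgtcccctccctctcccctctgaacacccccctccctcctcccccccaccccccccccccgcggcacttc
Mertk: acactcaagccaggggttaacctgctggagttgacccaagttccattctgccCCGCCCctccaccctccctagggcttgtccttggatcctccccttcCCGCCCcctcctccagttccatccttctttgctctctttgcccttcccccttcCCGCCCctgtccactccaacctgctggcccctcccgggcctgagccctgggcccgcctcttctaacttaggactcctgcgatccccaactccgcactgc
Stab1: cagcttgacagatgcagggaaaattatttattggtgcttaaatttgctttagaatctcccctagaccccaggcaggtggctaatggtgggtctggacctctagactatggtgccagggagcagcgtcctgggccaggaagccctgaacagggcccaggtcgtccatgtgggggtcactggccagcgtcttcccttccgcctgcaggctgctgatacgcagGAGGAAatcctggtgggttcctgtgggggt
In these 250-base windows the E-box CACGTG, a motif that repressors of the Bhlhe41 class are known to bind, was found in 0 of the 9 members and in 6.02% of 32851 RefSeq promoters of the same length. A GC box was found in 8 of the 9, all but Stab1, against 32.7% of all promoters. The PU.1 core was found in Axl, Mfge8 and Stab1, 3 of the 9, against 23.3% of all. The AP-1 motif TGANTCA was found in 0 of the 9 and in 6.75% of all. Both strands were searched, no searched motif contains another, and the matches describe letters only.

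Total counts ran from 17.7 to 20.83 M per library (1 M is 1e+06 counts), with little difference between groups. Bhlhe41 was at 27.1 to 45.4 CPM in the 6 WT libraries and at 6.80 to 26.0 CPM in the 6 Bhlhe41Cre libraries. Ccr2 RNA was at 17.6 to 38.5 CPM in WT CCR2low and 42.0 to 86.7 CPM in WT CCR2hi. In Bhlhe41Cre it was at 60.8 to 96.7 CPM in CCR2low and 70.8 to 89.4 CPM in CCR2hi. Ccr2 RNA thus did not separate the Bhlhe41Cre gates, and the 2 CCR2low groups differed in it without overlap. Its bearing on the gate and genotype results was not tested. Against the label of male mice, all 6 Bhlhe41Cre libraries held 1403 to 3699 counts of Xist, the RNA of the inactive X chromosome of female cells, while the WT libraries held 0 to 3 counts. Counts summed over 4 Y-linked genes were 668 to 1741 in the WT libraries, 709 to 1446 in replicates 1 and 2 of both Bhlhe41Cre groups, and 105 and 182 in replicate 3 of Bhlhe41Cre CCR2low and CCR2hi, so the Bhlhe41Cre libraries held RNA of both sexes. A genotype difference therefore cannot be told apart from a difference in the sex of the cells or in their source animals. The libraries also differed in the cells they hold. The summed level of 17 macrophage identity markers was 2.68 to 2.91% of counts in WT CCR2low, 2.50 to 2.70% in Bhlhe41Cre CCR2low, 0.214 to 0.470% in WT CCR2hi and 0.760 to 0.969% in Bhlhe41Cre CCR2hi, and all 17 were called higher in CCR2low in both genotypes. That of 14 fibroblast markers was 0.499 to 0.836%, 0.214 to 0.523%, 7.57 to 8.46% and 3.997 to 5.12% in the same order, and all 14 were called higher in CCR2hi in both genotypes. The CCR2hi libraries thus go against the cell type in their labels in this respect, with a low macrophage signal beside a high fibroblast signal. In such bulk samples, fewer macrophages and less RNA of a gene per macrophage cannot be told apart. Each result for a member below is therefore followed, where it matters, by the fit scaled on the 17 macrophage identity genes, which puts a member's change relative to those genes. On that scale the median of all genes tested moved to -3.21 and -1.86 (log2) for CCR2low against CCR2hi in WT and Bhlhe41Cre, and to -0.11 and -1.32 for Bhlhe41Cre against WT in CCR2low and CCR2hi. For the interaction it moved to 1.19.

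**Figure D1:**
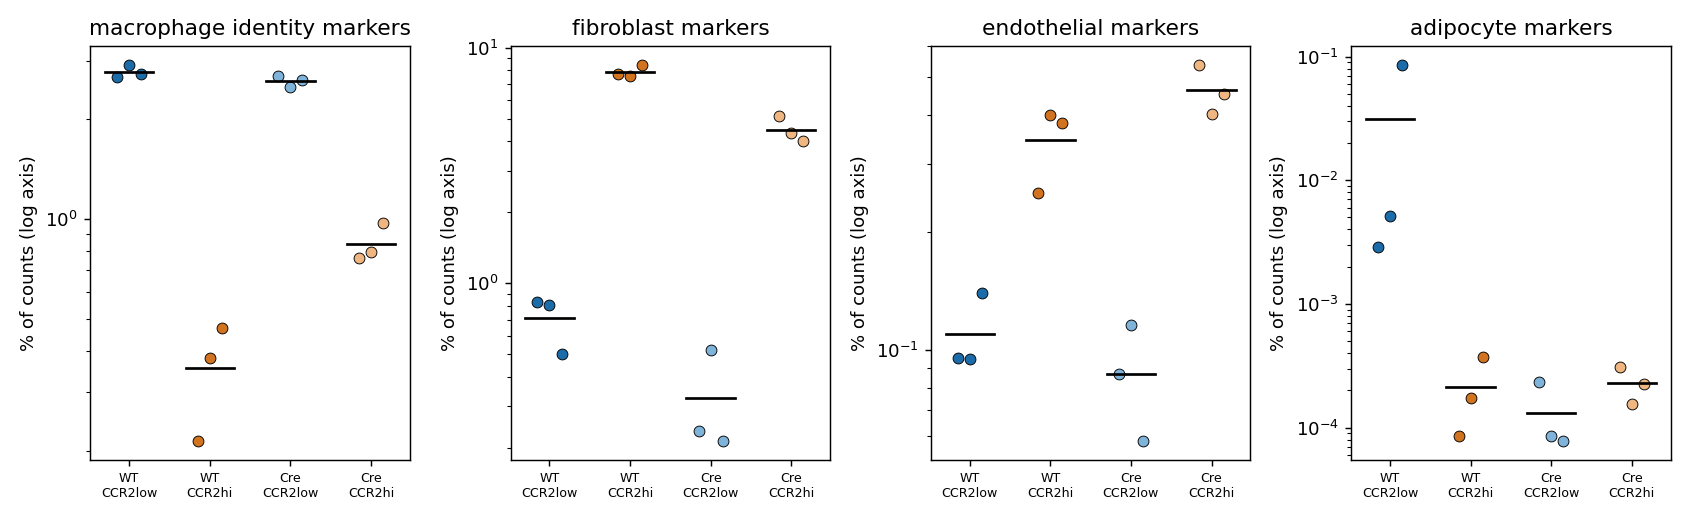
Summed level of the markers of 4 cell types, as a percentage of all counts on a log axis, in each of the 12 libraries (points) with the mean of 3 libraries (lines). Macrophage markers were lower and fibroblast markers higher in both CCR2hi groups, and adipocyte markers stood at 0.0858% in WT CCR2low replicate 3 against at most 0.00509% in the other 11 libraries.

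All values below are CPM on TMM-scaled library sizes, changes are log2 fold changes ± SE, and adjusted p values are from edgeR's quasi-likelihood test over all 14964 genes tested. Between the gates of WT, 3 of the 10 members were called higher in CCR2low and 3 lower, beside 29.8% and 30.0% of all genes (59.8% in either direction). Between those of Bhlhe41Cre 5 were called higher in CCR2low and 4 lower, beside 24.9% and 29.1% of all genes (54.1% in either direction). Bhlhe41Cre against WT in CCR2low had 2 members called higher and 5 lower, beside 16.4% and 26.7% (43.0% in either direction). In CCR2hi 1 was called higher and 3 lower, beside 16.2% and 15.9% (32.1% in either direction). For the interaction, the gate difference in Bhlhe41Cre minus that in WT, 1 member was called above 0 and 2 below, beside 4.74% and 7.85% (12.6% in either direction). With 6 of 10 between the WT gates and 4 of 10 for genotype in CCR2hi, the members stood close to the background, and with 9, 7 and 3 of 10 in the other comparisons they stood above it, which was not tested. The median change of the members was -0.14, 0.15, -0.37, -0.22 and -0.32 in these 5 comparisons, against 0.01, -0.01, -0.18, -0.03 and -0.18 over all genes. On macrophage identity scaling 7 members were called lower in CCR2low in WT, beside 94.9% of all genes, and 7 in Bhlhe41Cre, beside 88.9%, where 1 was called higher, beside 0.642%. On that scale 2 were higher and 2 lower for genotype in CCR2low, beside 7.24% and 10.3% of all genes. In CCR2hi 1 was higher and 7 lower, beside 1.45% and 78.6%, and 4 were above 0 for the interaction, beside 52.6%. The 5 comparisons share libraries, so they are not separate sources of evidence.

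**Figure D2:**
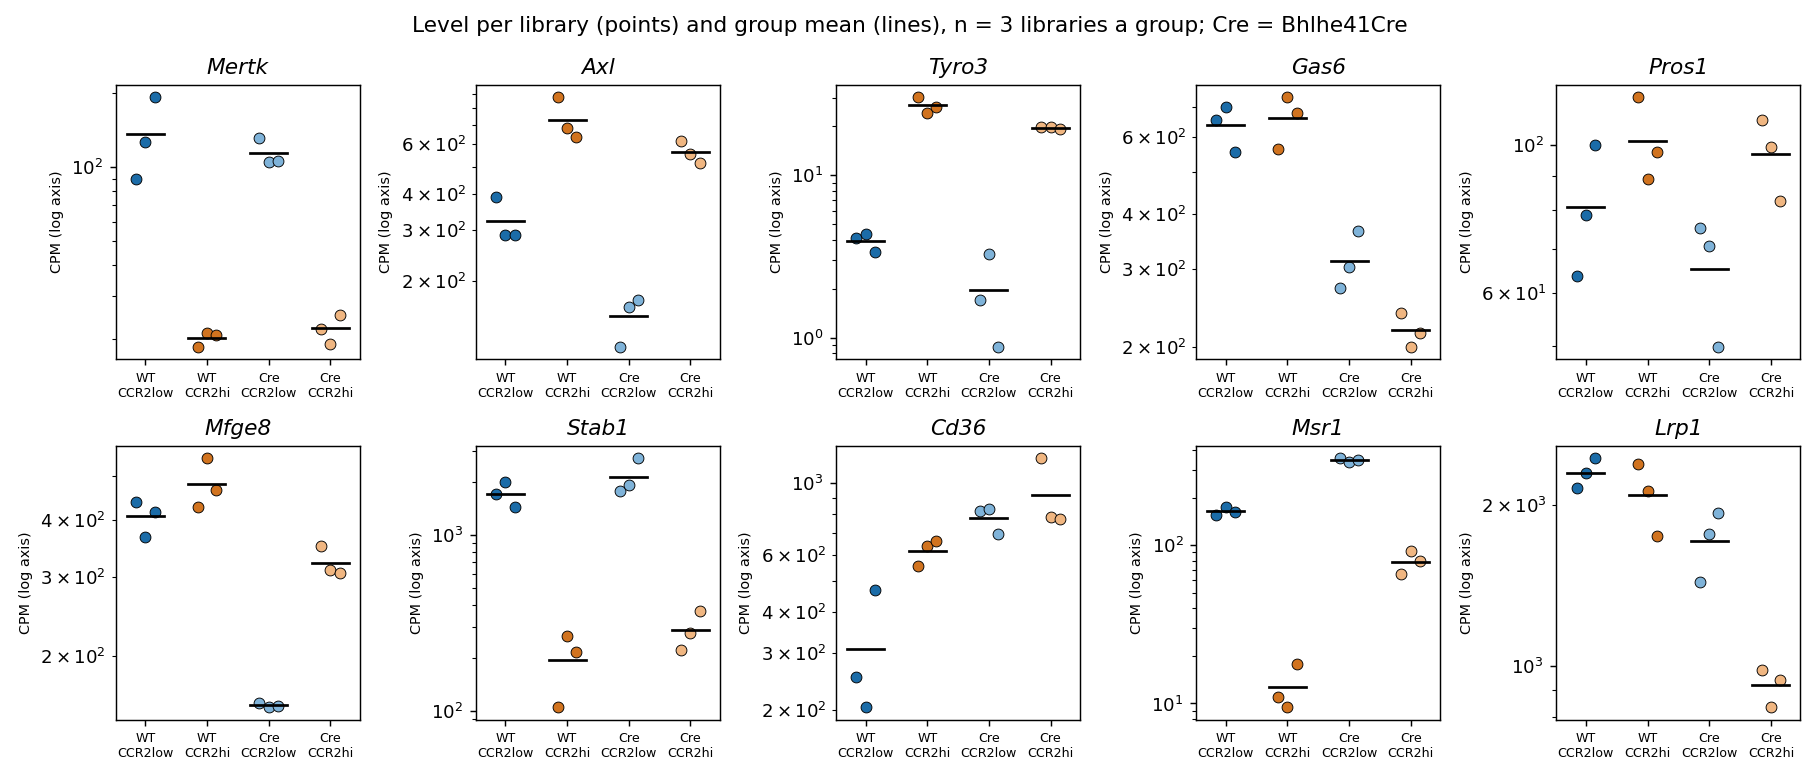
Level of each of the 10 members in CPM on a log axis, in each library (points) with the mean of 3 libraries (lines), for the 4 groups. Mertk, Stab1 and Msr1 were high in both CCR2low groups, Axl and Tyro3 were high in both CCR2hi groups, and Gas6, Mfge8 and Lrp1 were lower in Bhlhe41Cre in each gate.

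Mertk and Axl had opposite patterns across the gates. Mertk (chr2:128698956-128802894, plus strand, GENCODE M21 on GRCm38) was at 89.9, 127 and 192 CPM in the 3 WT CCR2low libraries and at 18.6, 21.1 and 20.7 CPM in WT CCR2hi. In Bhlhe41Cre it was at 131, 105 and 106 CPM in CCR2low and at 22.1, 19.1 and 25.1 CPM in CCR2hi. Every CCR2low library lay above every CCR2hi library, while the genotypes overlapped in each gate. The gate difference was 2.76 ± 0.23 (adjusted p = 4.38e-07) for WT and 2.37 ± 0.23 (adjusted p = 1.77e-06) for Bhlhe41Cre. The genotype difference was -0.26 ± 0.22 (adjusted p = 0.353) in CCR2low and 0.13 ± 0.22 (adjusted p = 0.686) in CCR2hi. Of the 17 macrophage identity markers, 12 were called higher in Bhlhe41Cre CCR2hi than in WT CCR2hi, and their part in the Mertk values was not tested. Scaled on those markers, the gate difference was -0.42 ± 0.32 (adjusted p = 0.212) for WT and 0.53 ± 0.32 (adjusted p = 0.129) for Bhlhe41Cre, and the genotype difference in CCR2hi was -1.15 ± 0.33 (adjusted p = 0.00432).

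Axl (chr7:25757273-25788705, minus strand), the TAM kinase that binds Gas6 with high affinity, was at 392.4, 289.8 and 289 CPM in WT CCR2low and at 873, 680.0 and 634 CPM in WT CCR2hi. The Bhlhe41Cre libraries held 118, 162 and 171 CPM in CCR2low and 614, 555 and 514 CPM in CCR2hi. No CCR2hi library fell into the CCR2low range, and in both gates the Bhlhe41Cre libraries lay below the WT libraries. Axl was lower in CCR2low in WT (-1.17 ± 0.18, adjusted p = 9.06e-05) and in Bhlhe41Cre (-1.90 ± 0.19, adjusted p = 1.82e-06). Bhlhe41Cre was lower than WT in CCR2low (-1.11 ± 0.18, adjusted p = 0.000463), and the test in CCR2hi gave -0.38 ± 0.18 (adjusted p = 0.124). The CCR2hi difference was called with limma-trend on TPM (-0.56, adjusted p = 0.0224). On macrophage identity scaling the CCR2low difference missed the threshold (-1.04 ± 0.36, adjusted p = 0.0549) and the CCR2hi difference passed it (-1.74 ± 0.37, adjusted p = 0.000537). Its gate difference was then -4.47 ± 0.41 (adjusted p = 1.05e-08) for WT and -3.76 ± 0.40 (adjusted p = 1.69e-07) for Bhlhe41Cre. Axl followed the fibroblast markers across the gates, and their part in its level was not tested.

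Tyro3 (chr2:119797733-119818104, plus strand), the remaining TAM kinase, was at 4.10, 4.33 and 3.37 CPM in WT CCR2low and at 30.2, 24.2 and 26.4 CPM in WT CCR2hi. In Bhlhe41Cre the values were 1.71, 3.27 and 0.882 CPM in CCR2low, from as few as 15 counts, and 19.7, 19.8 and 19.3 CPM in CCR2hi. Tyro3 was low in every CCR2low library and several times higher in every CCR2hi library. Between gates Tyro3 differed by -2.77 ± 0.28 (adjusted p = 2.05e-06) for WT and -3.31 ± 0.30 (adjusted p = 1.08e-06) for Bhlhe41Cre. Bhlhe41Cre was below WT in CCR2low (-0.996 ± 0.31, adjusted p = 0.0206), with libraries that lay close but did not overlap. The CCR2hi groups did not overlap either, yet the difference missed the threshold (-0.46 ± 0.26, adjusted p = 0.189). The CCR2low call was lost without any 1 of WT CCR2low replicate 1 or 2, WT CCR2hi replicate 1, Bhlhe41Cre CCR2low replicate 1 or 3, or of Bhlhe41Cre CCR2hi replicate 1, 2 or 3 (-0.97 to -0.50, adjusted p = 0.0523 to 0.11), and with limma-trend on TPM (-0.47, adjusted p = 0.0607), a fit of only the 2 groups compared (-0.84, adjusted p = 0.149) or a test against a 1.5-fold minimum (-0.996, adjusted p = 0.148), and the value grew without Bhlhe41Cre CCR2low replicate 2 (-1.58, adjusted p = 0.000692). The CCR2hi difference was called without Bhlhe41Cre CCR2low replicate 3 (-0.48, adjusted p = 0.0453), and with limma-trend on TPM (-0.59, adjusted p = 0.026) or a fit of only the 2 groups compared (-0.45, adjusted p = 0.0253), and the interaction was called without Bhlhe41Cre CCR2low replicate 2 (-1.12, adjusted p = 0.0432). With macrophage identity scaling the genotype difference was -0.89 ± 0.43 (adjusted p = 0.166) in CCR2low and -1.79 ± 0.40 (adjusted p = 0.000832) in CCR2hi. Its gate difference was then -6.04 ± 0.49 (adjusted p = 2.62e-09) for WT and -5.13 ± 0.48 (adjusted p = 3.72e-08) for Bhlhe41Cre.

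The balance between the TAM kinases was read as the ratio of Axl to Mertk in TPM, which is a level per transcript length within a library. The ratio was 5.06, 2.70 and 1.65 among the WT CCR2low libraries and 57.2, 38.6 and 34.7 among those of WT CCR2hi. In Bhlhe41Cre it was 1.04, 1.74 and 1.85 in CCR2low and 32.5, 35.01 and 23.9 in CCR2hi. Axl exceeded Mertk in all 12 libraries, and the gates did not overlap in either genotype. The ratio was 15.04-fold higher in CCR2hi than in CCR2low in WT and 20.1-fold higher in Bhlhe41Cre, by geometric means. Between genotypes the libraries overlapped in both gates. The smallest p that an exact permutation test of 3 libraries against 3 can give is 0.1, and the ratios are given as a description.

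**Figure D3:**
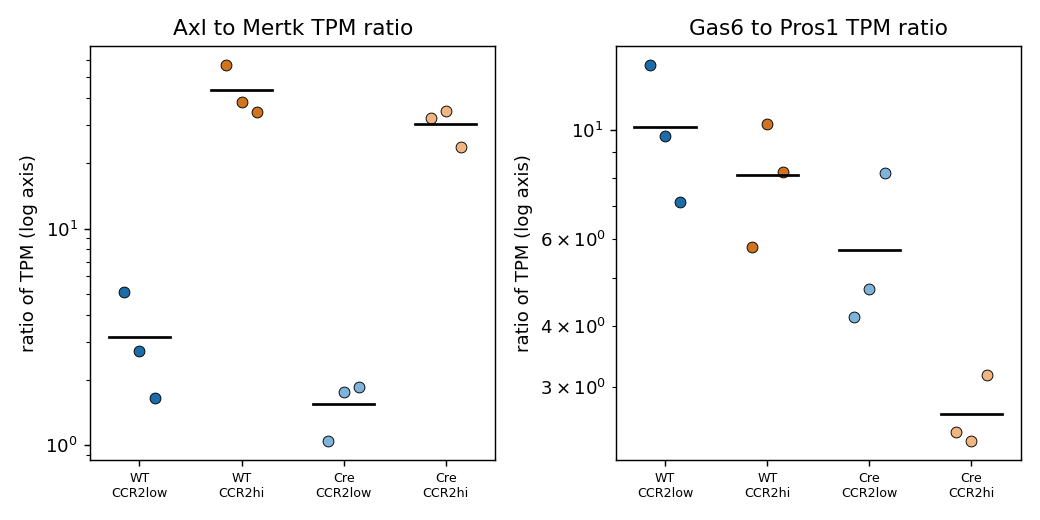
Ratio of Axl to Mertk and of Gas6 to Pros1, each in TPM on a log axis, in each library (points) with the mean of 3 libraries (lines). The Axl to Mertk ratio separated the gates, from 1.04 to 5.06 in CCR2low and from 23.9 to 57.2 in CCR2hi, and the Gas6 to Pros1 ratio was low in Bhlhe41Cre CCR2hi, at 2.33 to 3.17.

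Of the ligands, Gas6 differed by genotype and Pros1 did not pass that test. Gas6 (chr8:13465374-13494490, minus strand), the vitamin K-dependent ligand of all the TAM kinases, was at 656, 699.7 and 555 CPM in WT CCR2low and at 564, 737 and 679.8 CPM in WT CCR2hi. The Bhlhe41Cre libraries held 272, 304 and 367 CPM in CCR2low and 239, 200.5 and 216 CPM in CCR2hi. All 6 Bhlhe41Cre libraries lay below all 6 WT libraries, and the gates overlapped in WT only. Gas6 was lower in Bhlhe41Cre in CCR2low (-1.02 ± 0.15, adjusted p = 0.000267) and more so in CCR2hi (-1.60 ± 0.15, adjusted p = 1.34e-05). The gate difference was -0.05 ± 0.15 (adjusted p = 0.779) for WT and 0.53 ± 0.15 (adjusted p = 0.00998) for Bhlhe41Cre, and the difference between these was 0.58 ± 0.21 (adjusted p = 0.0933). Scaled on macrophage identity genes the genotype differences kept their sign in CCR2low (-0.95 ± 0.28, adjusted p = 0.0281) and in CCR2hi (-2.85 ± 0.30, adjusted p = 5.33e-06), while the gate difference in Bhlhe41Cre turned to -1.33 ± 0.29 (adjusted p = 0.0003). On that scale the WT gate difference was -3.23 ± 0.31 (adjusted p = 1.38e-08), and the interaction was called (1.90 ± 0.40, adjusted p = 0.00378). The summed fibroblast markers were also lower in Bhlhe41Cre, with 10 of 14 called lower in CCR2low (median -1.03) and 6 of 14 in CCR2hi (median -0.74), and their part in the values of Gas6, Mfge8, Lrp1 and Axl was not tested. The gate difference of Gas6 in Bhlhe41Cre was not called with library size scaling (0.31, adjusted p = 0.0658), limma-trend on TPM (0.28, adjusted p = 0.072) or a test against a 1.5-fold minimum (0.53, adjusted p = 0.672), and in WT it was called with limma-trend on TPM (-0.41, adjusted p = 0.0119). The interaction was called without any 1 of WT CCR2hi replicate 1, Bhlhe41Cre CCR2low replicate 3, or of Bhlhe41Cre CCR2hi replicate 1 (0.64 to 0.89, adjusted p = 0.0168 to 0.0424), and with DESeq2 (0.67, adjusted p = 0.0187), no filter on low counts (0.78, adjusted p = 0.0174) or limma-trend on TPM (0.69, adjusted p = 0.0326).

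Pros1 (chr16:62854307-62929346, plus strand), which encodes the anticoagulant protein S and also binds Mertk and Tyro3, was at 63.7, 78.8 and 100.3 CPM in WT CCR2low and at 118, 89.02 and 97.9 CPM in WT CCR2hi. Its Bhlhe41Cre values were 75.2, 70.6 and 49.9 CPM in CCR2low and 109, 99.5 and 82.4 CPM in CCR2hi. The gates overlapped in WT and were apart in Bhlhe41Cre, with the CCR2hi libraries higher. The test between gates gave -0.33 ± 0.19 (adjusted p = 0.158) for WT and -0.57 ± 0.19 (adjusted p = 0.0234) for Bhlhe41Cre. The genotype difference was -0.31 ± 0.19 (adjusted p = 0.215) in CCR2low and -0.07 ± 0.19 (adjusted p = 0.82) in CCR2hi, and the libraries overlapped in both. The call in Bhlhe41Cre was lost without any 1 of Bhlhe41Cre CCR2low replicate 3, or of Bhlhe41Cre CCR2hi replicate 1 or 2 (-0.56 to -0.38, adjusted p = 0.0712 to 0.13), and with no filter on low counts (-0.42, adjusted p = 0.0752) or a test against a 1.5-fold minimum (-0.57, adjusted p = 0.521). The WT gate difference was called without any 1 of WT CCR2low replicate 3, Bhlhe41Cre CCR2low replicate 3, or of Bhlhe41Cre CCR2hi replicate 1 or 3 (-0.53 to -0.47, adjusted p = 0.0375 to 0.0468), and with limma-trend on TPM (-0.71, adjusted p = 0.0343). With macrophage identity scaling the genotype difference in CCR2hi was -1.40 ± 0.37 (adjusted p = 0.00264). Its gate difference was then -3.60 ± 0.40 (adjusted p = 8.09e-08) for WT and -2.43 ± 0.38 (adjusted p = 1.54e-05) for Bhlhe41Cre.

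The ratio of Gas6 to Pros1 in TPM was 13.6, 9.72 and 7.14 among the WT CCR2low libraries and 5.77, 10.3 and 8.22 among those of WT CCR2hi. For Bhlhe41Cre it was 4.17, 4.75 and 8.16 in CCR2low and 2.43, 2.33 and 3.17 in CCR2hi. Gas6 exceeded Pros1 in every library, and only Bhlhe41Cre CCR2hi stood apart from its neighbours. Its ratio was 3.01-fold lower than in WT CCR2hi and 2.08-fold lower than in Bhlhe41Cre CCR2low, with no overlap in either pair. The other 2 pairs overlapped.

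Mfge8 (chr7:79133768-79149060, minus strand), the milk fat globule protein that bridges phosphatidylserine to integrins, was at 439.6, 367 and 418 CPM in WT CCR2low and at 427, 548 and 467 CPM in WT CCR2hi. With the Bhlhe41Cre genotype it was at 158, 154 and 155 CPM in CCR2low and at 349.8, 310.3 and 305 CPM in CCR2hi. Every Bhlhe41Cre library lay below every WT library, and the 3 Bhlhe41Cre CCR2low libraries were the lowest and nearly equal. Mfge8 was lower in Bhlhe41Cre in CCR2low (-1.39 ± 0.13, adjusted p = 1.87e-05) and in CCR2hi (-0.58 ± 0.13, adjusted p = 0.00376). The gate difference was -0.24 ± 0.13 (adjusted p = 0.119) for WT and -1.05 ± 0.13 (adjusted p = 1.2e-05) for Bhlhe41Cre. Mfge8 was thus called lower in CCR2low than in CCR2hi in Bhlhe41Cre, and the difference between the genotypes in this was -0.81 ± 0.18 (adjusted p = 0.0124). The interaction was not called without any 1 of WT CCR2hi replicate 1, or of Bhlhe41Cre CCR2hi replicate 1, 2 or 3 (-0.65 to -0.53, adjusted p = 0.0678 to 0.0991), and with no filter on low counts (-0.61, adjusted p = 0.065) or a test against a 1.5-fold minimum (-0.81, adjusted p = 0.281), and it reversed sign on macrophage identity scaling (0.52 ± 0.41, adjusted p = 0.274). The CCR2hi genotype difference was not called with a test against a 1.5-fold minimum (-0.58, adjusted p = 0.781). In WT the gate difference was called without any 1 of WT CCR2hi replicate 1, Bhlhe41Cre CCR2low replicate 3, or of Bhlhe41Cre CCR2hi replicate 1, 2 or 3 (-0.52 to -0.39, adjusted p = 0.00357 to 0.0169), and with library size scaling (-0.34, adjusted p = 0.0285) or limma-trend on TPM (-0.62, adjusted p = 0.00106). Scaled on macrophage identity genes, the WT gate difference was -3.42 ± 0.32 (adjusted p = 1.13e-08). That of Bhlhe41Cre was -2.91 ± 0.31 (adjusted p = 1.9e-07). On that scale Bhlhe41Cre stayed lower in CCR2low (-1.32 ± 0.30, adjusted p = 0.00607) and in CCR2hi (-1.84 ± 0.30, adjusted p = 8.37e-05).

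Among the scavenger receptors, Stab1 and Msr1 were high in CCR2low cells. Stab1 (chr14:31139013-31168641, minus strand), the endocytic receptor stabilin-1 of resident macrophages and sinusoidal endothelium, was at 1707, 1983 and 1444 CPM in WT CCR2low and at 105, 265 and 216 CPM in WT CCR2hi. Its Bhlhe41Cre values were 1774, 1911 and 2725 CPM in CCR2low and 221, 276 and 366 CPM in CCR2hi. The gates were far apart in both genotypes and the genotypes overlapped in both gates. Stab1 was higher in CCR2low by 3.13 ± 0.32 (adjusted p = 1.99e-06) for WT and by 2.89 ± 0.32 (adjusted p = 4.8e-06) for Bhlhe41Cre. Bhlhe41Cre against WT gave 0.32 ± 0.29 (adjusted p = 0.401) in CCR2low and 0.56 ± 0.30 (adjusted p = 0.164) in CCR2hi. Scaled on macrophage identity genes the gate difference was 0.06 ± 0.28 (adjusted p = 0.831) for WT and 1.06 ± 0.28 (adjusted p = 0.00167) for Bhlhe41Cre, and the interaction turned from -0.24 ± 0.42 (adjusted p = 0.734) to 0.997 ± 0.39 (adjusted p = 0.0403). Stab1 has 112 exon bases in common with Nt5dc2 on the opposite strand (1.09% of its exon bases), and Gas6 has 34 with Tmem255b (1.33%). The strand protocol is not given, so reads there cannot be assigned.

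Msr1 (chr8:39581685-39642673, minus strand), the class A scavenger receptor, was at 155, 174 and 161 CPM in WT CCR2low and at 10.99, 9.45 and 17.7 CPM in WT CCR2hi. In Bhlhe41Cre it was at 355, 335 and 347 CPM in CCR2low and at 65.7, 91.3 and 79.6 CPM in CCR2hi. The 4 groups did not overlap, with Bhlhe41Cre CCR2low highest, WT CCR2low next, Bhlhe41Cre CCR2hi after it and WT CCR2hi lowest. Msr1 was higher in CCR2low by 3.68 ± 0.21 (adjusted p = 4.18e-08) for WT and by 2.13 ± 0.20 (adjusted p = 1.15e-06) for Bhlhe41Cre. It was higher in Bhlhe41Cre by 1.08 ± 0.19 (adjusted p = 0.000742) in CCR2low and by 2.63 ± 0.21 (adjusted p = 2.39e-06) in CCR2hi. The interaction was -1.55 ± 0.27 (adjusted p = 0.00446), and it was called in each of the 20 alternatives other than macrophage identity scaling. Scaled on macrophage identity genes, Msr1 remained higher in Bhlhe41Cre in CCR2low (1.15 ± 0.28, adjusted p = 0.01) and in CCR2hi (1.41 ± 0.29, adjusted p = 0.000422). On that scale the gate difference was 0.54 ± 0.28 (adjusted p = 0.0771) for WT and 0.28 ± 0.28 (adjusted p = 0.337) for Bhlhe41Cre, and the interaction was -0.25 ± 0.40 (adjusted p = 0.584).

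Cd36 (chr5:17781690-17888801, minus strand), the fatty acid and oxidised lipoprotein receptor also abundant in adipocytes and capillary endothelium, was at 253, 204 and 469 CPM in WT CCR2low and at 554, 639 and 663 CPM in WT CCR2hi. The Bhlhe41Cre libraries held 817, 832 and 696 CPM in CCR2low and 1190.2, 786 and 774 CPM in CCR2hi. WT CCR2low was the lowest group without overlap, and its replicate 3, the library with the highest adipocyte markers, was its highest value (Lep, an adipocyte marker, was at 0 counts in all 12 libraries). The gates overlapped in Bhlhe41Cre. Cd36 was higher in Bhlhe41Cre in CCR2low (1.34 ± 0.26, adjusted p = 0.00151), and the test in CCR2hi gave 0.57 ± 0.26 (adjusted p = 0.113) with groups that did not overlap. The test between gates gave -1.003 ± 0.26 (adjusted p = 0.00489) for WT and -0.23 ± 0.26 (adjusted p = 0.479) for Bhlhe41Cre. The WT gate difference was not called with a test against a 1.5-fold minimum (-1.003, adjusted p = 0.0545). Cd36 in CCR2hi was called higher in Bhlhe41Cre without WT CCR2low replicate 3 (0.57, adjusted p = 0.029) and with a fit of only the 2 groups compared (0.57, adjusted p = 0.0408), and the interaction was called without WT CCR2low replicate 3 (1.20, adjusted p = 0.0152). Endothelial markers summed to 0.0948 to 0.139% of counts in WT CCR2low, 0.0584 to 0.116% in Bhlhe41Cre CCR2low, 0.252 to 0.399% in WT CCR2hi and 0.401 to 0.537% in Bhlhe41Cre CCR2hi. Platelet and megakaryocyte markers summed to 0.0317 to 0.0377% of counts in WT CCR2low, 0.0761 to 0.117% in Bhlhe41Cre CCR2low, 0.00388 to 0.00486% in WT CCR2hi and 0.0124 to 0.0203% in Bhlhe41Cre CCR2hi. Platelets also carry Cd36. In both gates the sum of these markers was higher in Bhlhe41Cre without overlap. Of the 6, 2 were called higher and 3 lower in CCR2low, and 4 higher in CCR2hi. The called markers thus went both ways in CCR2low, so the sum alone does not give the level of platelet RNA there. That sum was also higher in CCR2low than in CCR2hi in each genotype, as were the macrophage identity markers. The part of endothelial, adipocyte and platelet RNA in the Cd36 values was not tested. With macrophage identity scaling Cd36 stayed higher in Bhlhe41Cre CCR2low (1.40 ± 0.37, adjusted p = 0.0152) and changed sign without a call in CCR2hi (-0.68 ± 0.37, adjusted p = 0.0943). Its gate difference was then -4.17 ± 0.41 (adjusted p = 2.16e-08) for WT and -2.10 ± 0.38 (adjusted p = 5.79e-05) for Bhlhe41Cre, and the interaction was called (2.07 ± 0.52, adjusted p = 0.00744).

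Lrp1 (chr10:127538161-127621148, minus strand), the LDL receptor-related endocytic receptor, was at 2148, 2298 and 2444 CPM in WT CCR2low and at 2384, 2125 and 1750.3 CPM in WT CCR2hi. With the Bhlhe41Cre genotype it was at 1434, 1766 and 1931 CPM in CCR2low and at 979, 836 and 939.9 CPM in CCR2hi. The WT gates overlapped, and the Bhlhe41Cre CCR2hi libraries were the lowest of all 12. Lrp1 was lower in Bhlhe41Cre in CCR2hi (-1.18 ± 0.16, adjusted p = 0.000132) and in CCR2low (-0.43 ± 0.15, adjusted p = 0.0405). The gate difference was 0.14 ± 0.15 (adjusted p = 0.457) for WT and 0.90 ± 0.16 (adjusted p = 0.000268) for Bhlhe41Cre, and the interaction was 0.76 ± 0.22 (adjusted p = 0.039). The small CCR2low difference was called in the fit of all libraries and lost without any 1 of WT CCR2low replicate 1, 2 or 3, WT CCR2hi replicate 1 or 2, Bhlhe41Cre CCR2low replicate 1, 2 or 3, or of Bhlhe41Cre CCR2hi replicate 1, 2 or 3 (-0.47 to -0.24, adjusted p = 0.0508 to 0.274), and with no filter on low counts (-0.29, adjusted p = 0.19), a fit of only the 2 groups compared (-0.28, adjusted p = 0.103), a test against a 1.5-fold minimum (-0.43, adjusted p = 1) or a replicate block (-0.43, adjusted p = 0.0644). The interaction was lost without any 1 of WT CCR2low replicate 1 or 2, WT CCR2hi replicate 2, or of Bhlhe41Cre CCR2low replicate 2 (0.71 to 0.76, adjusted p = 0.0687 to 0.0963), and with library size scaling (0.65, adjusted p = 0.0526), a test against a 1.5-fold minimum (0.76, adjusted p = 0.447) or a replicate block (0.74, adjusted p = 0.0692). Macrophage identity scaling turned the gate difference to -3.14 ± 0.37 (adjusted p = 1.41e-07) for WT and -0.96 ± 0.34 (adjusted p = 0.014) for Bhlhe41Cre, the genotype difference was -0.36 ± 0.34 (adjusted p = 0.51) in CCR2low and -2.54 ± 0.36 (adjusted p = 3.17e-05) in CCR2hi, and the interaction was 2.19 ± 0.49 (adjusted p = 0.00452).

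**Figure D4:**
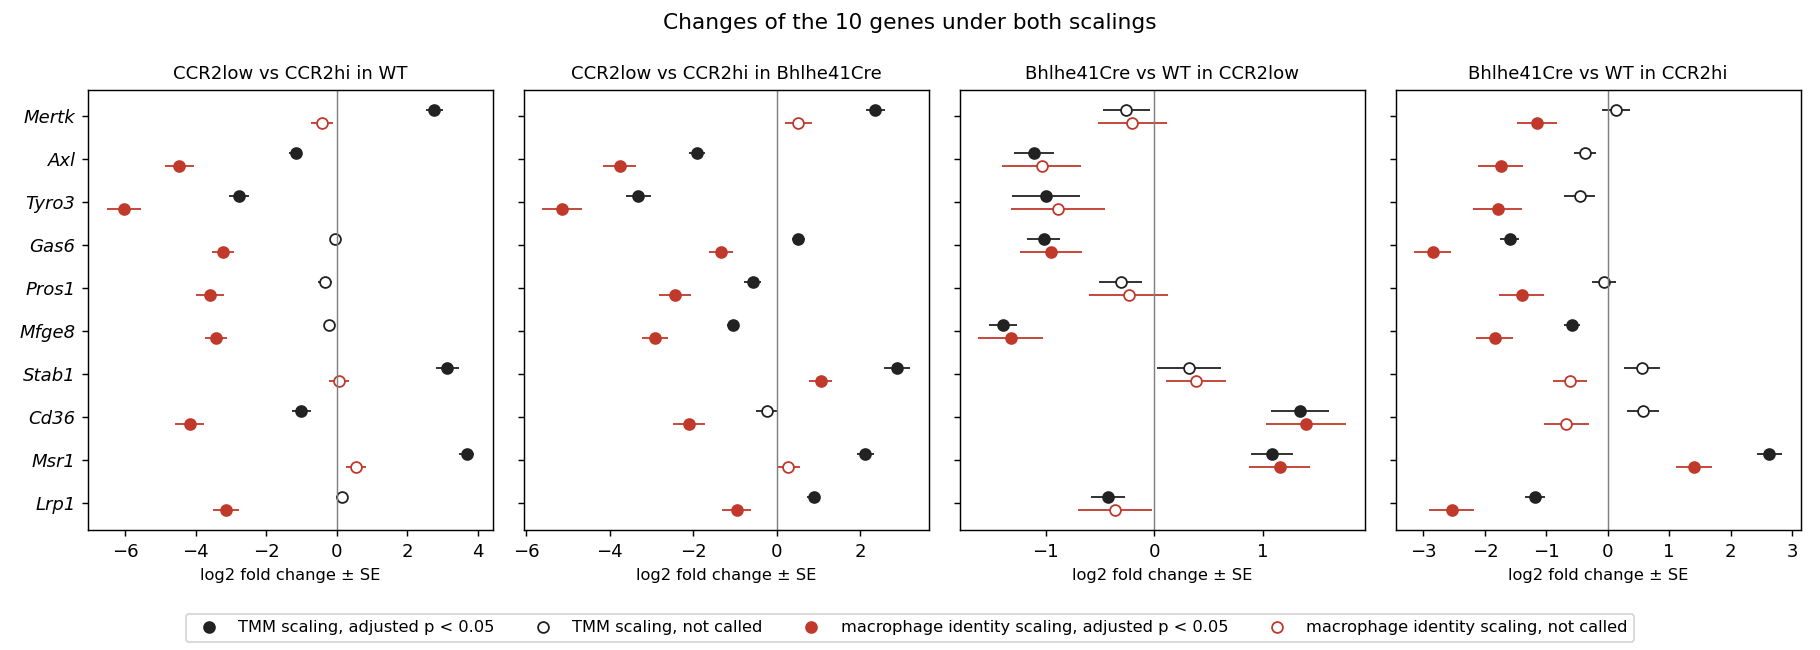
Log2 fold changes (points) with their SE (bars) of the 10 members in the gate and genotype comparisons, from edgeR's quasi-likelihood fit. Mertk, Stab1 and Msr1 lay above 0 and Axl and Tyro3 below 0 in both gate comparisons, and Gas6 and Mfge8 lay below 0 and Msr1 above 0 in both genotype comparisons. On macrophage identity scaling Mertk between the WT gates turned to -0.42.

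Set against the average of the 17 macrophage identity genes, the 3 members high in CCR2low parted. Mertk stood at 8.07 ± 3.44% of that average in WT CCR2low, 7.01 ± 0.978% in Bhlhe41Cre CCR2low, 10.8 ± 3.89% in WT CCR2hi and 4.87 ± 0.469% in Bhlhe41Cre CCR2hi (mean ± SD, n = 3). Stab1 stood at 99.7 ± 10.6%, 130.3 ± 24.1%, 95.5 ± 22.5% and 62.6 ± 8.49% in the same order. Msr1 stood at 9.56 ± 0.460%, 21.3 ± 1.25%, 6.61 ± 2.32% and 17.4 ± 3.17%. Only for Msr1 did the libraries of the genotypes not overlap in either gate, with Bhlhe41Cre above WT. For Mertk and Stab1 the genotypes were apart in CCR2hi, with Bhlhe41Cre lower, and overlapped in CCR2low. Between the gates of WT, Mertk and Stab1 overlapped, and Msr1 in CCR2low lay just above its CCR2hi range.

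**Figure D5:**
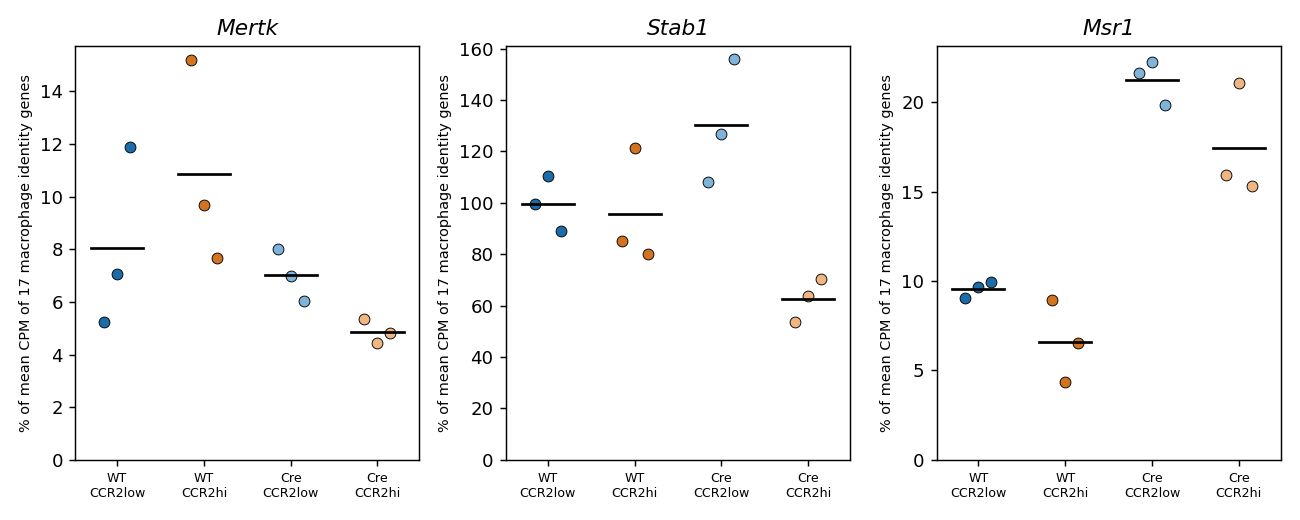
Level of Mertk, Stab1 and Msr1 as a percentage of the mean CPM of the 17 macrophage identity genes of the same library (points) with the mean of 3 libraries (lines). Msr1 lay between 15.3 and 22.3% in the 6 Bhlhe41Cre libraries and between 4.33 and 9.95% in the 6 WT libraries.

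Levels were ordered between genes in TPM (mean ± SD, n = 3). In WT CCR2low the most abundant members were Lrp1 at 511 ± 57.7, Stab1 at 428 ± 42.8 and Gas6 at 355 ± 32.4 TPM, and each overlapped its neighbour in this order. Mfge8, Cd36, Axl, Msr1, Mertk and Pros1 followed, with overlap between Cd36 and Axl, Axl and Msr1, and Mertk and Pros1, and Tyro3 was last at 1.41 ± 0.142 TPM. In WT CCR2hi Lrp1 at 561 ± 28.97 TPM stood above Gas6, Mfge8, Cd36 and Axl, whose neighbours overlapped, and Mertk was last at 8.44 ± 0.491 TPM. Stab1, second in WT CCR2low, was sixth there at 68.00 ± 28.1 TPM and overlapped Pros1, and Tyro3 overlapped Msr1. In Bhlhe41Cre CCR2low Stab1 was first at 538 ± 83.6 TPM, above Cd36 at 406 ± 79.7 and Lrp1 at 377 ± 29.8 TPM, which overlapped. Msr1 and Gas6 came next and overlapped, then Mfge8, Axl, Mertk and Pros1, of which only Mertk and Pros1 overlapped, and Tyro3 was last at 0.773 ± 0.457 TPM. In Bhlhe41Cre CCR2hi Cd36 was first at 549 ± 162 TPM and stood apart from Mfge8, Lrp1 and Axl, whose neighbours overlapped. Gas6, Stab1 and Msr1 followed without overlap, Pros1 overlapped Msr1, and Mertk at 8.13 ± 1.13 and Tyro3 at 7.91 ± 0.221 TPM were last and overlapped.

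The genes nearest in pattern to each member were found among tested genes with a mean of at least 5 CPM, as the root mean square difference of centred log2 CPM over the 12 libraries. For Mertk they were Shtn1 (0.17) and Selenop (0.23), and for Stab1 Abcc3 (0.23) and Blnk (0.24). For Axl they were Arpin (0.17) and Dennd2a (0.18), and for Tyro3 Bmper (0.19) and Twist1 (0.19). Gas6 was nearest to Itgb5 (0.19), an integrin subunit of the efferocytosis lists, and to Timp2 (0.20). Pros1 was nearest to Trim39 (0.14) and Uxs1 (0.15), Mfge8 to Mxd4 (0.16) and Vmac (0.16), and Lrp1 to Itsn1 (0.13) and Adcy7 (0.18). The distances were larger for Cd36, nearest to Taf9b (0.26) and Taf7 (0.26), and for Msr1, nearest to Galnt6 (0.30) and Tnf (0.31). These distances are not scaled to the member's own SD of log2 CPM. That SD was 1.88 for Msr1, 1.74 for Tyro3, 1.66 for Stab1 and 1.35 for Mertk. It was 0.94 for Axl, 0.73 for Cd36 and Gas6, 0.66 for Mfge8, 0.56 for Lrp1 and 0.35 for Pros1. The larger distance of Msr1 is thus not by itself a poorer match, nor the small one of Pros1 a closer match. The 12 libraries share gate and genotype, so nearness describes a shared profile over 4 groups.

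Other genes of the uptake pathway were counted by list, and the lists of do-not-eat-me and find-me signals are given by named genes only. Of all genes, 29.8% were called higher and 30.0% lower in CCR2low in WT, and 24.9% and 29.1% in Bhlhe41Cre. For Bhlhe41Cre against WT the shares were 16.4% and 26.7% in CCR2low and 16.2% and 15.9% in CCR2hi. The counts of each list below are to be read beside these shares, which several of them stood near, and no list was tested as a set. Of 10 tested phosphatidylserine receptors and engulfment integrins, 5 were higher and 2 lower in CCR2low in each genotype, among them Havcr2, which encodes TIM-3, in WT (2.71 ± 0.16, adjusted p = 5.31e-08) and in Bhlhe41Cre (1.62 ± 0.15, adjusted p = 1.51e-06). In Bhlhe41Cre CCR2low 1 was higher and 3 lower than in WT, with Timd4, the phosphatidylserine receptor of resident macrophages, at -2.85 ± 0.35 (adjusted p = 8.87e-05) and Itgb5, an Mfge8-binding integrin subunit, at -0.85 ± 0.19 (adjusted p = 0.00322). In CCR2hi 3 were higher and 1 lower, with Cd300lf, a phospholipid receptor, at 2.45 ± 0.21 (adjusted p = 5.03e-06). Of 12 bridging proteins and opsonins, 6 were higher in CCR2low in each genotype, with 3 lower in WT and 2 lower in Bhlhe41Cre. Lgals3, which encodes galectin-3 and can bridge to Mertk, was at 4.37 ± 0.28 (adjusted p = 8.12e-08) between the WT gates and at 2.30 ± 0.26 (adjusted p = 4.24e-05) between genotypes in CCR2hi. Between genotypes 3 were higher and 2 lower in CCR2low, where Thbs1, a thrombospondin bridge to Cd36, was at 1.15 ± 0.25 (adjusted p = 0.00262), and 2 were higher and 1 lower in CCR2hi.

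Of 15 further scavenger receptors, 8 were higher and 5 lower in CCR2low in WT, and 5 higher and 6 lower in Bhlhe41Cre. Cd68, the macrophage lysosomal scavenger receptor, was at 4.17 ± 0.29 (adjusted p = 1.2e-07) between the WT gates, and Scarf2, at -3.59 ± 0.22 (adjusted p = 9.95e-08) between the Bhlhe41Cre gates, was high in CCR2hi. Between genotypes 3 were higher and 7 lower in CCR2low, among them Scarf2 (-1.85 ± 0.21, adjusted p = 5.94e-05) and Scara3 (-1.88 ± 0.28, adjusted p = 0.000249), and 4 were higher and 5 lower in CCR2hi, with Cd68 at 1.98 ± 0.26 (adjusted p = 0.000132). Macrophage identity markers summed to 0.214 to 0.470% of counts in WT CCR2hi and 0.760 to 0.969% in Bhlhe41Cre CCR2hi. Their part in the values of Cd68 and Lgals3 there, and in the gate values of the genes named by list, was not tested. Of 13 genes of the engulfment machinery, 8 were higher in CCR2low in each genotype, with 3 lower in WT and 1 lower in Bhlhe41Cre. Dock2, a Rac activator of leukocytes, was at 2.94 ± 0.18 (adjusted p = 7.17e-08) between the WT gates. Between genotypes 3 were higher and 2 lower in CCR2low and 4 higher and 1 lower in CCR2hi, where Rac2, a leukocyte Rac, was at 1.57 ± 0.26 (adjusted p = 0.000674). Rubcn, which encodes Rubicon of LC3-associated phagocytosis, was at -1.04 ± 0.17 (adjusted p = 0.000402) between genotypes in CCR2low.

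Of 9 genes of sterol and lipid sensing and efflux, all 9 were higher in CCR2low in WT and 6 in Bhlhe41Cre. Apoe, an apolipoprotein of cholesterol efflux, was at 3.30 ± 0.30 (adjusted p = 7.67e-07) in WT, and Abca1, a cholesterol exporter, was at 2.23 ± 0.20 (adjusted p = 1.03e-06) in Bhlhe41Cre. Between genotypes 2 were higher and 4 lower in CCR2low, with Abca1 at 1.01 ± 0.20 (adjusted p = 0.00136) and Rxra, a nuclear receptor, at -0.88 ± 0.16 (adjusted p = 0.00111), and 2 were higher and 1 lower in CCR2hi. Of 3 proteases that shed surface receptors, Adam17, known to cleave Mertk, was called higher in CCR2low than in CCR2hi in WT (0.47 ± 0.14, adjusted p = 0.0135) and in Bhlhe41Cre (1.05 ± 0.15, adjusted p = 3.9e-05), and higher in Bhlhe41Cre CCR2low than in WT CCR2low (0.64 ± 0.14, adjusted p = 0.00357). All 3 were called higher in Bhlhe41Cre in CCR2low, and in CCR2hi Adam10 was at -0.08 ± 0.15 (adjusted p = 0.695) and Adam9 at -0.25 ± 0.21 (adjusted p = 0.378). With macrophage identity scaling 0 of the 3 were called for genotype in CCR2low, and all 3 were called lower in CCR2low than in CCR2hi in each genotype. Of 4 genes of the do-not-eat-me signals, Sirpa, the receptor of CD47, was higher in CCR2low in WT (3.20 ± 0.23, adjusted p = 1.53e-07), and Cd24a was higher in Bhlhe41Cre in CCR2hi (3.44 ± 0.34, adjusted p = 1.6e-05). Sirpa was also higher in CCR2low in Bhlhe41Cre (2.22 ± 0.22, adjusted p = 2.18e-06). Between genotypes in CCR2low it was lower in Bhlhe41Cre (-0.56 ± 0.21, adjusted p = 0.048). Neutrophil markers summed to 0.00387 to 0.00853% of counts in WT CCR2hi and 0.0813 to 0.127% in Bhlhe41Cre CCR2hi (6 of 8 called higher), and monocyte markers to 0.0429 to 0.0686% and 0.108 to 0.137% (5 of 7 called higher). Their part in the CCR2hi genotype values of Cd24a, Cd300lf, Rac2 and Msr1 was not tested. Of 5 receptors of find-me signals, P2ry6, a nucleotide receptor, was at 3.14 ± 0.25 (adjusted p = 2.86e-07) between the WT gates, and Cx3cr1 was lower in Bhlhe41Cre in CCR2low (-1.47 ± 0.34, adjusted p = 0.00375) and in CCR2hi (-1.22 ± 0.35, adjusted p = 0.0165). Between the Bhlhe41Cre gates P2ry6 was at 1.95 ± 0.24 (adjusted p = 1.29e-05). There S1pr1 went the other way, lower in CCR2low (-1.36 ± 0.16, adjusted p = 7.74e-06). Scaled on macrophage identity genes, 94.9% of all genes were called lower in CCR2low in WT and 88.9% in Bhlhe41Cre. Beside these shares, 11 of the 13 engulfment genes were lower in each genotype, and of the 15 scavenger receptors 11 were lower in WT and 9 in Bhlhe41Cre.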

How the data were processed

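The submitters' processing notes name CASAVA 1.8, STAR 2.4.0j, RSEM and the mm10 build. A version of RSEM and an annotation are not stated there. The count table deposited by the authors holds expected counts as whole numbers, and the authors' second table holds TPM. KD columns were taken as Bhlhe41Cre, each by its gate and number, which left 0 columns without a sample. Their groups rest on sample titles, since the remaining fields are displaced.

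Counts of 12 libraries were filtered with filterByExpr (14964 of 53801 genes; 27248 had no count), scaled by TMM and fitted with a mean per group (edgeR 4.0.16, R 4.3.3; robust quasi-likelihood, 8 residual degrees of freedom, common biological coefficient of variation 18.9%). Tests were two-sided, and genes were called at a Benjamini-Hochberg adjusted p under 0.05 over all genes. Ratios and orders of levels used TPM. Alternatives were DESeq2 1.42.0, limma 3.58.1 (voom, and trend on log2(TPM + 1)), other scalings and filters, a 1.5-fold minimum, a replicate block and leaving out each library. The method was tested on simulated counts of the WT gate comparison, in which far fewer genes were changed than were called in the data. That test does not cover libraries that differ in the cells they hold. Residuals of same-numbered libraries correlated across genes at 0.204, 0.106 and 0.358 between the Bhlhe41Cre gates, and at -0.059, 0.025 and -0.050 between the WT gates. Bhlhe41Cre CCR2low replicate 2 correlated at 0.188 with Bhlhe41Cre CCR2hi replicate 1, above its value with replicate 2. The numbers may thus pair the Bhlhe41Cre libraries, which is not settled for replicates 1 and 2. The main fit takes no account of such pairing.

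Named genes are all members, the 2 nearest patterns per member, and genes among the 2 smallest p values per list and comparison with at least 5 CPM, of which not all are named. The members and lists were chosen with earlier results of these data known.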

Additional observations from a re-analysis of the deposited data

Results flagged for a closer look

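For 3 members the CCR2low minus CCR2hi difference itself differed between the genotypes by edgeR's interaction test over all genes. The difference in Bhlhe41Cre minus that in WT was -1.55 ± 0.27 (adjusted p = 0.00446) for Msr1, which had the smaller gate difference in Bhlhe41Cre. It was -0.81 ± 0.18 (adjusted p = 0.0124) for Mfge8, which was called lower in CCR2low in Bhlhe41Cre and not in WT. It was 0.76 ± 0.22 (adjusted p = 0.039) for Lrp1, which was called higher in CCR2low in Bhlhe41Cre and not in WT. The macrophage identity markers summed to 0.214 to 0.470% of counts in WT CCR2hi and to 0.760 to 0.969% in Bhlhe41Cre CCR2hi, and their part in these values was not tested. With macrophage identity scaling Msr1 stood at -0.25 ± 0.40 (adjusted p = 0.584), Mfge8 at 0.52 ± 0.41 (adjusted p = 0.274) and Lrp1 at 2.19 ± 0.49 (adjusted p = 0.00452).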

How the results depend on the processing

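The sign changes of members in which either value was called came from macrophage identity scaling: Mertk between the WT gates (-0.42) and between genotypes in CCR2hi (-1.15), Lrp1 between the gates of WT (-3.14) and of Bhlhe41Cre (-0.96), Gas6 between the Bhlhe41Cre gates (-1.33), and the interactions of Mfge8 (0.52) and Stab1 (1.00). Sign changes with no call on either side occurred under other settings too, such as Lrp1 between the WT gates (-0.14 with limma-trend on TPM) and the Stab1 interaction (0.27 without WT CCR2hi replicate 1). With that scaling 14320 genes were called in the WT gate comparison (115 higher, 14205 lower), 13401 in the Bhlhe41Cre gate comparison (96, 13305), 2618 for genotype in CCR2low (1084, 1534), 11977 for genotype in CCR2hi (217, 11760) and 7999 for the interaction (7874, 125). The main counts were 8949, 8094, 6441, 4808 and 1884. It called 4 members for genotype in CCR2low and 8 in CCR2hi, against 7 and 4. Testing against a 1.5-fold minimum gave 5509, 4928, 2486, 1329 and 478 genes, and 1 member for the interaction against 3. limma-trend on TPM gave 1091 interaction genes. Leaving out 1 library gave 871 to 2801 interaction genes, with 871 without Bhlhe41Cre CCR2low replicate 1, 927 without Bhlhe41Cre CCR2hi replicate 3, 953 without WT CCR2low replicate 2 and 1138 without WT CCR2low replicate 1; the cause was not tested. A replicate block over all 12 libraries called 9052, 8244, 6099, 4473 and 2156 genes. For the gates and the interaction it joined the same replicate numbers within a genotype. For the genotype tests it joined the same numbers of WT and Bhlhe41Cre, a pairing that the sample titles do not state. Residuals of the libraries so joined correlated at -0.185, -0.060 and -0.234 in CCR2low and at 0.089, -0.144 and 0.130 in CCR2hi. With the block the Lrp1 calls for genotype in CCR2low (-0.43, adjusted p = 0.0644) and for the interaction (0.74, adjusted p = 0.0692) were lost, and no other member's call changed. Of the ratios of TPM, none moved beyond the spread of the replicates with CPM in place of TPM. Scaling between libraries cancels within such a ratio, so this replacement could change little and is a weak check. The 40 levels relative to macrophage identity genes did not move beyond that spread with a geometric mean. None of the 48 ratio values with a library left out moved either, but this was fixed in advance and is no check. Leaving out 1 of 3 libraries always shifts a group mean by less than that spread, the larger SD of the log2 ratio in the 2 groups. The low count of Tyro3 in CCR2low limits its precision, and the number of libraries limits that of all.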

Other observations

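Relative to the mean CPM of the 14 fibroblast markers, the members that were lower in Bhlhe41Cre CCR2hi differed from each other. Gas6 was at 11.98 ± 1.76% of that mean in WT CCR2hi and at 7.44 ± 0.727% in Bhlhe41Cre CCR2hi (mean ± SD, n = 3), with no overlap. Lrp1 was at 38.1 ± 7.63% and 31.4 ± 4.06%, with overlap. Mfge8 was at 8.74 ± 1.41% and 10.96 ± 0.690%, and Axl, whose CPM did not pass the test, was at 13.3 ± 2.79% and 19.1 ± 0.772%, both higher in Bhlhe41Cre without overlap, for Mfge8 by a narrow margin. Tyro3, whose CPM did not pass the test either, was at 0.488 ± 0.0641% and 0.671 ± 0.0799%, also without overlap and by a narrow margin. In CCR2low Gas6 was at 123 ± 27.8% in WT and at 149 ± 66.4% in Bhlhe41Cre, with the higher mean in Bhlhe41Cre and overlapping libraries. Mfge8 was at 81.4 ± 30.4% and 73.3 ± 28.6% there, and Lrp1 at 463 ± 190% and 799 ± 327%, each with overlap. Axl was at 62.9 ± 16.6% and 69.5 ± 28.3%, and Tyro3 at 0.760 ± 0.159% and 0.781 ± 0.244%, with overlap as well. The fibroblast markers were themselves lower in Bhlhe41Cre CCR2hi, with 6 of 14 called, and these relative values carry no test.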
